A study of Homo sapiens with 9 samples.

Results

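The comparison described here is that of THP-1 cells carrying the NFATC2 short hairpin RNA shRNA-143, 1 of 2 knockdown constructs, with THP-1 cells carrying a non-targeting control shRNA. It was taken by library name, with no measured value in the choice, and holds 6 of the 9 libraries of the series, 3 per group, over all genes. The other 3 libraries carry a second NFATC2 construct, shRNA-146, and serve here for the spread between libraries and for a test of where the constructs differ. THP-1 is an established human monocytic line, grown from an acute myeloid leukaemia and carrying the MLL-AF9 fusion of KMT2A and MLLT3, so that all results are from 1 cell line. All cells, the control included, were spinoculated with lentivirus made in 293T cells, put under puromycin at 24 hours and taken for RNA at 48 hours, so that viral entry, puromycin and a hairpin are shared by all groups. The libraries measure polyadenylated RNA of the bulk culture, where fewer cells of a kind and less RNA per cell cannot be told apart. The series calls the replicates biological without saying that they were separate cultures, so the p-values rest on the variation among these libraries alone, part of which may be technical.

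NFATC2 is a transcription factor that waits phosphorylated in the cytoplasm. When calcium enters the cell, the phosphatase calcineurin removes the phosphates, and the factor moves to the nucleus, where it binds DNA at a GGAAA core, often beside AP-1. It is best known for switching on cytokine genes in T cells and has roles in myeloid cells too. An shRNA is processed into a short guide RNA that directs Argonaute proteins to matching transcripts.

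Library totals ran from 40047459 to 43906182 counts in these 6 libraries. The fit included all 9 libraries with the replicate number as a pairing term, since the comparison is defined by it. Control and shRNA-143 libraries of the same number deviated alike from their group means (r = 0.758, 0.668 and 0.329 across genes for numbers 1, 2 and 3). Libraries numbered 2 and 3 also resembled each other across groups (0.105 and 0.45), so these values do not settle how numbers 2 and 3 pair. Libraries numbered 1 had r from -0.678 to -0.259 against libraries of other numbers. Deviations from a group mean sum to 0 within the group, so the positive r at number 1 itself brings negative values elsewhere. All 14 monocytic leukaemia markers, among them SPI1, CEBPA, LYZ, HOXA9 and MEIS1, had enough counts to be tested, though CD14 had only 44 to 150. Of the T and NK, B, erythroid, megakaryocyte, epithelial and stromal lists, 9 of 13, 6 of 10, 11 of 12, 6 of 9, 8 of 11 and 6 of 10 markers had at most 10 counts in each of the 6 libraries or were not read. Those not read were 5, 5, 10, 2, 3 and 4 markers absent from the authors' deposited comparison. Some markers of these lists had more counts than CD14, such as PECAM1 (3651 to 9396), CD79B (747 to 1467) and NKG7 (476 to 941). Of the 19 tested members of these lists 0 passed by edgeR's test, 1 rose and 1 fell by DESeq2 (PAX5 and NKG7) and 0 passed by limma. Before adjustment 1 was higher and 2 lower at p under 0.05, against 1614 higher and 1491 lower of all 14975 tested genes. Levels are CPM, the counts of a gene relative to the TMM-scaled library total, given for replicates 1, 2 and 3 in that order. Changes are log2 fold changes of shRNA-143 against control ± SE from edgeR's quasi-likelihood test, with p-values adjusted by the Benjamini-Hochberg method over all 14975 tested genes and a threshold of 0.05.

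The first question was whether the transcript aimed at was reduced. The gene NFATC2 lies on chromosome 20, minus strand, from 51386957 to 51562831 (hg38; ENSG00000101096). Its level was 12.7, 27.6 and 27.4 CPM in control and 1.49, 7.4 and 6.95 CPM with shRNA-143. Every shRNA-143 library lay below every control library, and the libraries numbered 1 were the lowest of each group. The change was -2.27 ± 0.24 (adjusted p = 0.00168), and without the pairing -2.09 ± 0.64 (adjusted p = 0.497), where it did not pass. Of the 36 tested genes of the NFAT and calcineurin pathway, NFATC2 fell, 0 rose, and the median log2 fold change was 0.17 against 0.0045 over all tested genes. The calcium sensors of the endoplasmic reticulum, STIM1 and STIM2, stood at 0.45 ± 0.14 and 0.51 ± 0.16 and did not pass (adjusted p = 0.106 and 0.116).

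Across all genes, 474 of 14975 passed, 239 up (1.6% of genes tested) and 235 down (1.57%), together 3.17%. The changes were modest, with a median size of 1.79-fold among those up and 1.83-fold among those down. Over 2-fold changes were seen in 74 genes up and 90 down, and over 4-fold changes in 5 and 7. All of the called genes moved the same way in all 3 same-numbered pairs. The test that called them used these same pairs, so this agreement is no separate support. The libraries of the groups did not overlap in 178 of those up and 201 of those down, against 15.2% of all tested genes. Genes were called for a difference between these same libraries, so this too is no separate support. In 5 equal bins of tested genes by mean CPM, 11 rose and 4 fell in the lowest and 28 rose and 74 fell in the highest. Among the 12 most abundant called genes, COX7C was the one that rose.

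**Figure D1:**
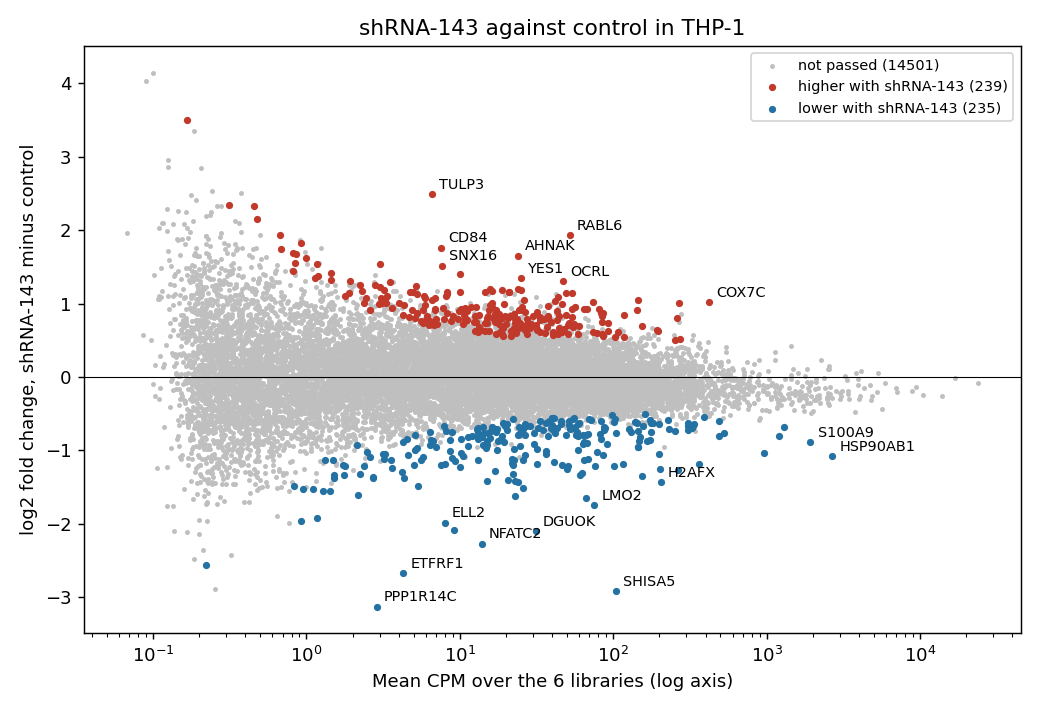
Each point is a tested gene, with its mean CPM over the 6 libraries on a log axis and its log2 fold change, shRNA-143 minus control, on the vertical axis. The 239 genes that rose and the 235 that fell are coloured, with PPP1R14C, SHISA5 and ETFRF1 lowest among those labelled and TULP3 highest.

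The number of genes that passed varied widely with the fit. Without the pairing 7 genes passed, 1 up and 6 down, although 193 of the 239 and 206 of the 235 then still had an unadjusted p under 0.05. With the pairing and the 6 compared libraries alone, 2789 passed, 1482 up and 1307 down, and 472 of the 474 were among them. With libraries scaled by their totals alone, 267 were up and 147 down, so that 64.5% of calls were up in place of 50.4%, and the median of all genes moved from 0.0045 to 0.099. Leaving out control replicate 1, 2 or 3 left 144, 58 and 73 genes, shRNA-143 replicate 1, 2 or 3 left 114, 60 and 55, and shRNA-146 replicate 1, 2 or 3 gave 2099, 237 and 1050. Without all libraries numbered 1, 2 or 3, 1575, 52 and 90 genes passed. The authors' deposited table lists 139 genes at an adjusted p under 0.05, 50 up and 89 down. In all these fits of the count table, each of the 474 genes that was tested kept its direction. All 474 had moved the same way in all 3 same-numbered pairs of these counts, so this is no separate support.

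Among protein-coding genes with a mean of at least 1 CPM, the largest falls were of PPP1R14C, SHISA5 and ETFRF1. PPP1R14C, an inhibitor of protein phosphatase 1, was at 5.06, 4.09 and 6.31 CPM in control and 0.795, 0.456 and 0.524 CPM with shRNA-143, a change of -3.13 ± 0.24 (adjusted p = 0.000189). SHISA5, an endoplasmic reticulum protein linked to p53-dependent apoptosis, was at 194, 148 and 206 CPM in control and 29.1, 23.4 and 20.1 CPM with shRNA-143, with -2.92 ± 0.16 (adjusted p = 2.89e-05). ETFRF1, a regulator of the electron transfer flavoprotein of mitochondria, was at 7.08, 7.32 and 7.59 CPM in control and 1.54, 0.953 and 1.07 CPM with shRNA-143, with -2.67 ± 0.25 (adjusted p = 0.00111). In all 3 genes the control libraries lay close together and several-fold above each shRNA-143 library. DGUOK, the mitochondrial deoxyguanosine kinase that salvages purine nucleosides for mitochondrial DNA, was at 57.1, 39.4 and 55.8 CPM in control and 14.4, 10.6 and 10.4 CPM with shRNA-143, with -2.10 ± 0.15 (adjusted p = 0.000163). UBE2F, the enzyme that passes NEDD8 to cullin-RING ligases with CUL5, was at 18.9, 10.9 and 13.9 CPM in control and 5.59, 2.86 and 2.45 CPM with shRNA-143, with -2.08 ± 0.26 (adjusted p = 0.00287). ELL2, a subunit of the super elongation complex that speeds RNA polymerase II, was at 12.1, 12.4 and 13.5 CPM in control and 2.67, 3.9 and 3.08 CPM with shRNA-143, with -1.99 ± 0.22 (adjusted p = 0.00191). Here too no library of one group reached the other, although UBE2F was higher in the libraries numbered 1 of both groups. 32.4% of the exonic bases of ETFRF1 and 16.2% of those of UBE2F are shared with other genes, which leaves part of their counts uncertain.

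Among blood cell genes, LMO2, the bridging cofactor of the TAL1 and GATA complexes of blood stem cells, stood at 131, 96.9 and 120.4 CPM in control and 39, 31.9 and 32.4 CPM with shRNA-143, with -1.75 ± 0.13 (adjusted p = 0.000175). ADGRE5 (CD97), an adhesion receptor of leukocytes, stood at 103, 102 and 97 CPM in control and 27.9, 37 and 32.6 CPM with shRNA-143, with -1.65 ± 0.18 (adjusted p = 0.00191). STAT5B, a signal transducer of cytokine receptors, stood at 29.4, 34.5 and 31.1 CPM in control and 10.9, 14.5 and 12.6 CPM with shRNA-143, with -1.33 ± 0.13 (adjusted p = 0.00139). Each of these fell in every pair without overlap of the groups. H2AFX, the histone variant phosphorylated at DNA breaks, stood at 254, 268 and 375 CPM in control and 98.7, 118 and 111 CPM with shRNA-143, with -1.43 ± 0.23 (adjusted p = 0.0112), and control replicate 3 was the highest library. PERP, a p53 target of cell junctions, stood at 44.6, 30.8 and 39 CPM in control and 19, 12.5 and 10.01 CPM with shRNA-143, with -1.51 ± 0.20 (adjusted p = 0.00419). The remaining named falls were of RAC3 (-1.63 ± 0.27) and of the low-abundance genes RGL4 (-1.92 ± 0.35), F12, coagulation factor XII (-1.56 ± 0.30), and LSP1, an actin-binding leukocyte protein (-1.55 ± 0.28), with adjusted p-values from 0.0129 to 0.023. Of the exonic bases of RGL4, 47.8% are shared with other genes.

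Among the same kind of genes the largest rise was that of TULP3, which carries receptors into primary cilia. TULP3 (ENSG00000078246, chromosome 12, 2877223 to 2941140, plus strand) was at 1.86, 2.42 and 1.63 CPM in control and 8.18, 13.4 and 12.1 CPM with shRNA-143, with 2.49 ± 0.21 (adjusted p = 0.000342). RABL6, a RAB-like GTPase, was at 12.6, 26.6 and 22.6 CPM in control and 41.3, 98.9 and 109.6 CPM with shRNA-143, with 1.94 ± 0.30 (adjusted p = 0.0107). In RABL6 the libraries numbered 1 were the lowest of each group, yet the groups did not overlap. CD84, a SLAM family adhesion receptor of leukocytes, was at 2.64, 5.08 and 2.48 CPM in control and 7.15, 13.3 and 14.5 CPM with shRNA-143, with 1.76 ± 0.24 (adjusted p = 0.00462). AHNAK, a giant scaffold protein under the plasma membrane, was at 8.21, 15 and 8.9 CPM in control and 16.8, 46.3 and 48.2 CPM with shRNA-143, with 1.65 ± 0.27 (adjusted p = 0.0129). SNX16, a sorting nexin of late endosomes, was at 3.99, 3.94 and 3.67 CPM in control and 14.3, 10.3 and 9.37 CPM with shRNA-143, with 1.52 ± 0.19 (adjusted p = 0.00287). Control levels of SNX16 lay within a narrow range, and shRNA-143 replicate 1 was the highest library. YES1, a SRC family kinase, was at 15.3, 14.5 and 12.5 CPM in control and 36.3, 33.1 and 37.9 CPM with shRNA-143, with 1.35 ± 0.15 (adjusted p = 0.00191). OCRL, the inositol phosphatase mutated in Lowe syndrome, was at 24.9, 30.6 and 25.5 CPM in control and 64.1, 69.5 and 65.9 CPM with shRNA-143, with 1.30 ± 0.15 (adjusted p = 0.00191). These genes, from TULP3 to OCRL, showed no overlap between the groups. TULP3 was the 1 call among 38 cilia and Hedgehog genes (median 0.082), and YES1 the 1 call among 17 SRC family kinases and their regulators (median 0.13).

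The other named rises were mostly of genes at a few CPM. CLEC12A, a C-type lectin of myeloid cells, was at 1.83, 0.546 and 1.03 CPM in control and 4.05, 2.24 and 1.84 CPM with shRNA-143, with 1.31 ± 0.28 (adjusted p = 0.0328). FYCO1, which links autophagosomes to kinesin, was at 1.91, 9.29 and 4 CPM in control and 3.1, 22.2 and 19.3 CPM with shRNA-143, with 1.40 ± 0.29 (adjusted p = 0.0317). In FYCO1 the groups overlapped, and the libraries numbered 1 were the lowest of both. CHRM4, STOX2, GALNT3, HES2, TBX15 and CRYBG3 rose by 1.26 to 1.54 on the log2 scale (adjusted p = 0.022 to 0.0484), and the groups overlapped in STOX2, HES2, TBX15 and CRYBG3. Of the 30 named genes with the largest changes, SHISA5, PPP1R14C, LMO2, TULP3, DGUOK, ELL2 and ETFRF1 also passed without the pairing (adjusted p = 0.00214 to 0.0451). Without 1 library of control or shRNA-143, 15 to 19 of the 30 passed, and all 30 kept their direction. The 30 were chosen to move alike in all 3 pairs, so the kept direction is no separate support.

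**Figure D2:**
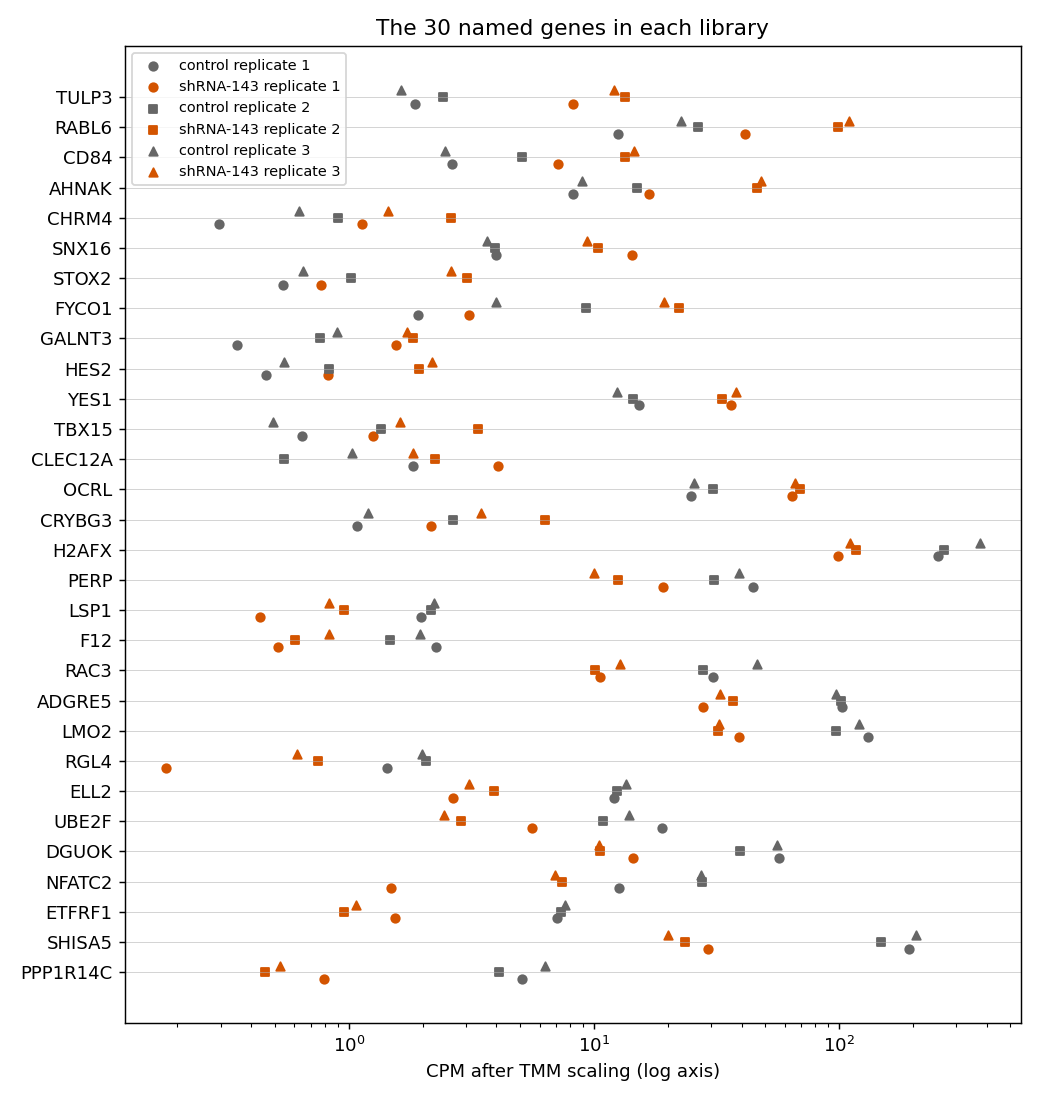
Points are single libraries, control in grey and shRNA-143 in orange with a symbol per replicate number, on a log axis of CPM after TMM scaling. The 15 protein-coding genes with the largest rises and the 15 with the largest falls are ordered by fold change, and the groups lie apart in all 15 that fell and in 10 of the 15 that rose.

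The second construct against the same transcript allows a test of where shRNA-143 differed from it. The comparisons with control use the same control libraries, and the tests of shRNA-143 against control and against shRNA-146 use the same shRNA-143 libraries, so neither is independent of the other. Between the constructs, 179 of 14975 genes passed (1.2%), 116 lower and 63 higher with shRNA-143. Of the 235 genes that fell with shRNA-143, 66 were also lower than with shRNA-146. Of the 239 that rose, 6 were also higher than with shRNA-146. Among the 30 named genes, 9 of the 15 that fell and 0 of the 15 that rose differed between the constructs by edgeR's test, and without the pairing 5 of the 30 did. Of the 15 that rose, OCRL and YES1 had an unadjusted p under 0.05 between the constructs. A difference that did not pass does not show that the constructs act alike.

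NFATC2 itself differed by -0.31 ± 0.23 (adjusted p = 0.713) between the constructs, which did not pass. PPP1R14C was 0.16 ± 0.20 with shRNA-146 against control, and the constructs differed by -3.29 ± 0.24 (adjusted p = 0.000145). For SHISA5 the value with shRNA-146 was -0.26 ± 0.15 and the difference -2.66 ± 0.16 (adjusted p = 6.91e-05). For LMO2 they were 0.13 ± 0.13 and -1.88 ± 0.13 (adjusted p = 0.000129). With shRNA-146 these 3 genes thus had values near 0. ADGRE5 stood at 0.43 ± 0.18 with shRNA-146, a difference of -2.08 ± 0.19 (adjusted p = 0.000614). CPEB3, a translational regulator that binds mRNA, fell by 1.12 ± 0.19 in log2 units (adjusted p = 0.0121) with shRNA-143 but rose by 0.78 ± 0.18 with shRNA-146 (adjusted p = 0.0391). DGUOK and ELL2 had values below 0 with both, at -0.54 ± 0.14 and -0.45 ± 0.21 with shRNA-146, and still differed by -1.56 ± 0.15 (adjusted p = 0.000736) and -1.54 ± 0.22 (adjusted p = 0.00675). By contrast TULP3 differed by -0.03 ± 0.19 (adjusted p = 0.97), SNX16 by 0.025 ± 0.18 (adjusted p = 0.973) and RGL4 by -0.083 ± 0.37 (adjusted p = 0.958).

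The genes that were higher with shRNA-143 than with either other group were 6, LAMP5 among them. SLC40A1, the iron exporter ferroportin, stood at 33.2, 28.5 and 29 CPM in control and 82.6, 56.6 and 63.7 CPM with shRNA-143, a rise of 1.15 ± 0.14 in log2 units (adjusted p = 0.00287), and differed from shRNA-146 by 0.92 ± 0.14 (adjusted p = 0.00982). F3, the tissue factor that starts coagulation, stood at 15.3, 11.4 and 11.1 CPM in control and 40.7, 22 and 23.9 CPM with shRNA-143, with 1.16 ± 0.15 (adjusted p = 0.00376) and a difference of 0.74 ± 0.15 (adjusted p = 0.0397). YOD1, a deubiquitinase, rose by 0.83 ± 0.14 in log2 units (adjusted p = 0.0121), and KLHL15 and BTBD3, both BTB domain proteins, by 0.80 ± 0.15 and 0.61 ± 0.14. In SLC40A1, F3 and YOD1 each shRNA-143 library exceeded each control library, and in KLHL15 and BTBD3 the groups overlapped.

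**Figure D3:**
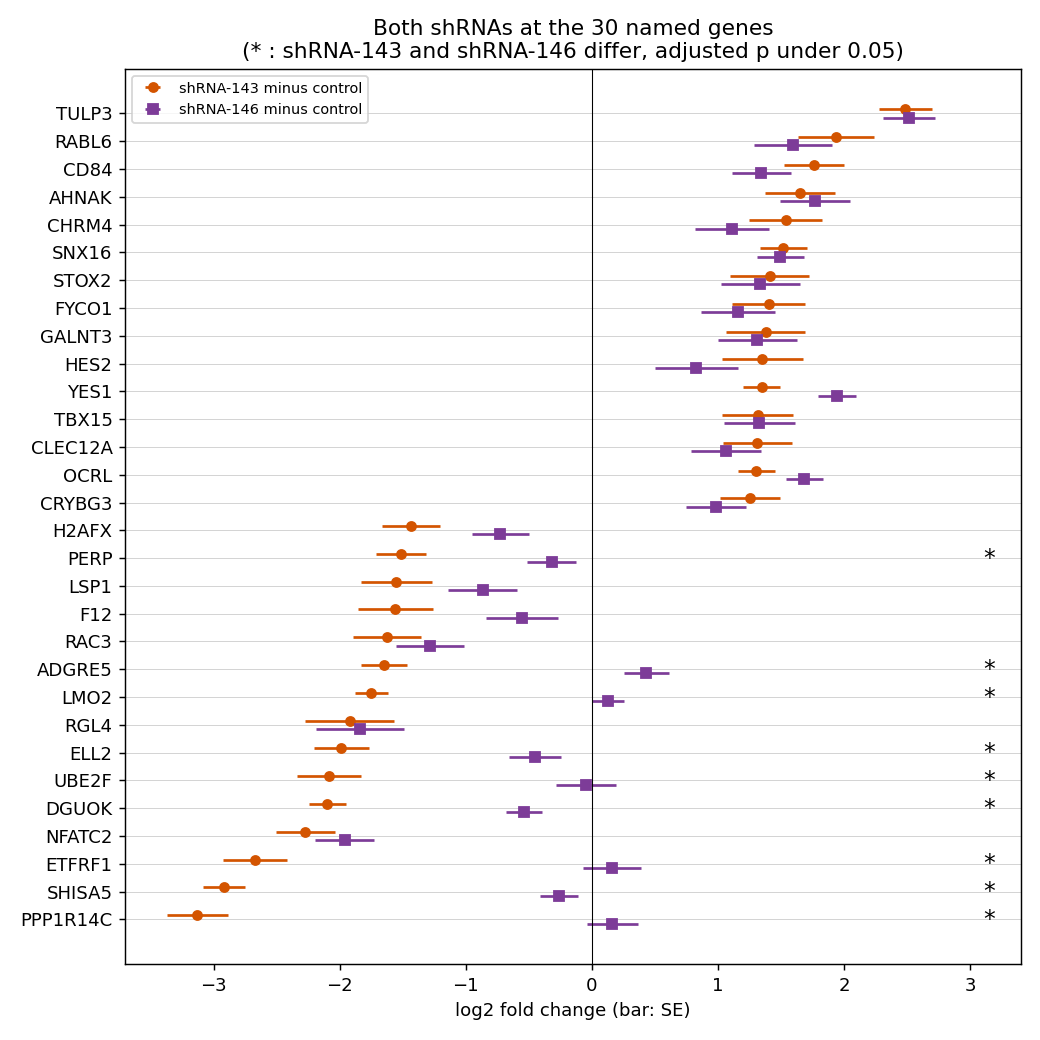
Log2 fold changes against the shared control are drawn for both constructs at the 30 named genes, with SE bars. A star marks the 9 genes, all among those that fell, where shRNA-143 and shRNA-146 differed.

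Since NFATC2 binds a GGAAA core, the windows before the start sites of changed genes were read for it. The sequences, from RefSeq on GRCh38.p14, are the 250 bases before 1 start site per gene, over which the shares were counted, and 9988 of the tested protein-coding genes had one. GGAAA on either strand (TTTCC on the other) was found in 105 of 192 windows of genes that rose (54.7%), in 83 of 166 of genes that fell (50%) and in 53.6% of the windows of all tested protein-coding genes. The longer GGAAAA, which contains GGAAA, was in 37 (19.3%) and 19 (11.4%), against 17.7%. Shares among genes that rose were thus near that of all tested genes. Those among genes that fell were lower for both GGAAA and GGAAAA, and no test was made. The windows of 2 genes that fell and 2 that rose are shown as examples of windows with and without the core, chosen among the named genes after the search. They are given 5′ to 3′ on the gene's strand and were cut short before any annotated exon, which leaves 234 bases for SHISA5, 196 for DGUOK, 246 for TULP3 and 250 for OCRL, with any GGAAA or TTTCC in capitals:
SHISA5, chr3:48504827-48505060, minus strand: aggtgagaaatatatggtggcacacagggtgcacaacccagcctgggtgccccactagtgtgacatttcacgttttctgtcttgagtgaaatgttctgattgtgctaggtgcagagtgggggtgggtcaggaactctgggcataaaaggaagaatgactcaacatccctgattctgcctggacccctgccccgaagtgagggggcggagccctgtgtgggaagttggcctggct
DGUOK, chr2:73926630-73926825, plus strand: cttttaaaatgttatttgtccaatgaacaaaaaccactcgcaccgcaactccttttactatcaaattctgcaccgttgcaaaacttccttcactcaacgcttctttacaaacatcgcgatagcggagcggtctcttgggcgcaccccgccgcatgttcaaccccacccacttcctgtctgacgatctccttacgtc
TULP3, chr12:2890641-2890886, plus strand: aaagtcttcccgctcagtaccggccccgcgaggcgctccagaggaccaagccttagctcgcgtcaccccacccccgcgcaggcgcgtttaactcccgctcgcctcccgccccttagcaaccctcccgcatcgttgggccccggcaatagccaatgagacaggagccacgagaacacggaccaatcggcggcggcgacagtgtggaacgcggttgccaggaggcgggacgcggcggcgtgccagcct
OCRL, chrX:129540009-129540258, plus strand: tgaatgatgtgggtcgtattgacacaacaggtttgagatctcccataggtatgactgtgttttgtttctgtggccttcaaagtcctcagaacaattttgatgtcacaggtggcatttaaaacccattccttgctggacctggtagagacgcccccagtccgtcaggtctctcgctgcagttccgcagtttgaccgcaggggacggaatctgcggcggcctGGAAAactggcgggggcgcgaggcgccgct
Of these 4 stretches, OCRL holds 1 core and the others 0, which says only that these letters are not in the stretches shown. The TULP3 and OCRL stretches begin after the first base of those genes as deposited (2877223 and 129539849). They thus precede a later start site and not the outer end of the gene.

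The gene lists below are described by the number of tested members that passed and by their median, beside 3.17% and 0.0045 for all tested genes. No list was tested as a set. At an unadjusted p under 0.05, 1614 of all 14975 tested genes were higher and 1491 lower, and list counts before adjustment are to be read beside these. Among genes known as NFAT targets in other cells, 14 of 33 had enough counts to be tested. Of these 0 passed by edgeR's test or limma and 1 by DESeq2, the integrin subunit ITGAV, which stood at 0.58 ± 0.17 (adjusted p = 0.087) by edgeR's test and was the 1 gene with an unadjusted p under 0.05. Of 36 targets of KMT2A fusions, 3 rose and 1, LMO2, fell, with a median of 0.18 that a correction for gene length brought to 0.021. The translational regulator CPEB2 rose by 0.81 ± 0.15 in log2 units (adjusted p = 0.0191), the cell cycle inhibitor CDKN1B (p27) by 0.67 ± 0.12 in log2 units (adjusted p = 0.0204) and LAMP5, a lysosome-associated membrane protein, by 0.63 ± 0.12 in log2 units (adjusted p = 0.0245). Among 22 factors of the LMO2 and stem cell network, LMO2 fell and 0 rose, and its relative LMO4 stood at 0.52 ± 0.12 (adjusted p = 0.0502), just short of the threshold. Of 35 transcription elongation and fusion partner genes, ELL2 alone passed, and the median was -0.013, or 0.075 with library size scaling.

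Myeloid genes moved in both directions. Of 28 monocyte and macrophage genes, 2 fell and 1 rose. The alarmins S100A9 and S100A8, calcium-binding proteins that make up calprotectin, were among the most abundant transcripts that changed. S100A9 was at 3075, 1751 and 2725 CPM in control and 1543, 1119 and 1360.0 CPM with shRNA-143, with -0.89 ± 0.16 (adjusted p = 0.019), and S100A8 at 1913, 1014 and 1728 CPM in control and 992, 751 and 871 CPM with shRNA-143, with -0.80 ± 0.17 (adjusted p = 0.035). In both, control replicate 2 was the lowest control library, and the groups did not overlap. SIGLEC1, a sialic acid receptor of macrophages, rose by 1.23 ± 0.29 in log2 units (adjusted p = 0.0466) from a few CPM. Of 18 granule genes MPO, myeloperoxidase, fell by 0.60 ± 0.13 in log2 units (adjusted p = 0.0372), with libraries at 38.1, 61.3 and 86.9 CPM in control and 23.2, 41 and 60.6 CPM with shRNA-143, so that the groups overlapped and the fall appears within pairs. The granule list had a median of -0.17, which the gene length correction turned to 0.047. Of 24 myeloid transcription factors STAT5B fell and 0 rose, and CEBPE, a factor of late granulocyte maturation, stood at -1.08 ± 0.26 (adjusted p = 0.053).

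In the integrin, surface antigen and interferon lists the few genes that passed all rose, and in the antigen presentation and NF-kB lists 0 passed by edgeR's test. Of 24 integrin and adhesion genes, 2 rose and 0 fell. They were the alpha subunits of the fibronectin and VCAM1 receptors, ITGA5 by 1.01 ± 0.18 in log2 units (adjusted p = 0.0177) and ITGA4 by 0.85 ± 0.17 in log2 units (adjusted p = 0.0245). ITGA5 was at 95.2, 260.0 and 169 CPM in control and 173, 482 and 427 CPM with shRNA-143, and its groups overlapped, with the libraries numbered 1 lowest in each. Of 20 SLAM family and myeloid surface antigens, CD84 and CLEC12A rose and 0 fell. For MHC class II, MHC class I and nucleic acid sensor genes, 0 of 14, 0 of 19 and 0 of 22 passed by edgeR's test. At an unadjusted p under 0.05 these lists had 4, 3 and 5 genes up and 0, 2 and 1 down, limma called 0, and DESeq2 called HLA-DRA, RFX5 and TLR7 higher. Of 44 interferon-stimulated genes, GBP3 rose by 1.13 ± 0.19 in log2 units (adjusted p = 0.0131) and SAMD9L by 1.01 ± 0.22 in log2 units (adjusted p = 0.0339), and 0 fell. For 33 NF-kB and inflammatory genes, 0 passed by edgeR's test or limma, 5 were higher and 1 lower before adjustment at p under 0.05, and the nuclear IkB proteins NFKBIZ and BCL3 stood at 1.08 ± 0.28 and 1.14 ± 0.31 (adjusted p = 0.0635 and 0.0774), both called higher by DESeq2.

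Few cell cycle genes passed, 6.52% of the mitotic and 2.33% of the replication list, against 3.17% of all tested genes. RRM2, given here beside CDK1, was counted in the list of dNTP synthesis and in neither of these. CDK1, the kinase that drives entry into mitosis, stood at 218, 176 and 179 CPM in control and 129, 92.9 and 80.3 CPM with shRNA-143, with -0.95 ± 0.15 (adjusted p = 0.00989), and was -0.99 ± 0.15 (adjusted p = 0.00988) against shRNA-146. RRM2, the small subunit of ribonucleotide reductase, stood at 147, 131 and 145 CPM in control and 70.3, 63.2 and 51.8 CPM with shRNA-143, with -1.21 ± 0.15 (adjusted p = 0.00287), and -1.45 ± 0.15 (adjusted p = 0.00109) against shRNA-146. In both, all shRNA-143 libraries were below all control libraries. BIRC5 (survivin) fell by 0.69 ± 0.14 in log2 units (adjusted p = 0.028) and the replication factor GINS1 by 0.58 ± 0.13 in log2 units (adjusted p = 0.0372), while ANLN, a scaffold of the cytokinetic ring, rose by 0.75 ± 0.17 in log2 units (adjusted p = 0.0381). In all, 2 fell and 1 rose of 46 mitotic genes, whose median of -0.059 library size scaling turned to 0.04, and 1 fell and 0 rose of 43 replication genes, with a median of -0.11. Of 21 CDK inhibitors and D cyclins CDKN1B and BTG2, an antiproliferative early response gene (1.003 ± 0.22), rose and 0 fell. Of 35 p53 target genes 2 fell, SHISA5 and PERP, and 2 rose, BTG2 and the cyclin CCNG2 (0.74 ± 0.16). Of 33 genes of the BCL2 family and caspases, 0 passed by edgeR's test, DESeq2 or limma, with 5 higher and 2 lower before adjustment at p under 0.05.

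Chaperones and protein turnover followed. HSP90AB1, the constitutive cytosolic HSP90, was the most abundant transcript that changed, at 3417, 3667 and 3798 CPM in control and 1467, 1866 and 1836 CPM with shRNA-143, with -1.08 ± 0.14 (adjusted p = 0.00385). The highest shRNA-143 library lay far below the lowest control library. The pseudogene HSP90AB3P also fell (-1.53 ± 0.31), and reads of such near-identical copies cannot be parted with certainty. The chaperonin subunits CCT2 and CCT4, which fold actin and tubulin, fell by 0.60 ± 0.13 and 0.54 ± 0.12, so that 3 fell and 0 rose of 36 heat shock and chaperonin genes, with a median of -0.16. CUL4A, the scaffold of a cullin-RING ubiquitin ligase, stood at 109.6, 104 and 105 CPM in control and 46.6, 45.5 and 45.6 CPM with shRNA-143, with -1.21 ± 0.13 (adjusted p = 0.00191) and nearly equal libraries within each group. Together with UBE2F it made 2 falls and 0 rises in 37 neddylation and cullin genes. Of 36 proteasome genes 0 passed by edgeR's test, 11 lower ones had an unadjusted p under 0.05, DESeq2 called PSMC5 and PSME2 lower, and limma PSME2. Values were below 0 in 35 of the 36, with a median of -0.25. In the integrated stress response list of 34, the amino acid carrier SLC7A1 and the tRNA synthetase CARS fell (-0.76 ± 0.13 and -0.57 ± 0.13), and the cystine carrier SLC7A11 and the lipoprotein receptor VLDLR rose (0.81 ± 0.17 and 0.97 ± 0.17). Of 36 endoplasmic reticulum chaperone and degradation genes, the oxidase ERO1B rose by 0.62 ± 0.15 and 0 fell.

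Endosomal genes were among those that rose. Of 50 sorting nexins, retromer subunits, phosphoinositide phosphatases and their partners, 5 rose and 0 fell, with a median of 0.14. Beside OCRL and SNX16 these were SNX13 by 0.70 ± 0.13 in log2 units (adjusted p = 0.0229), RUFY2, an effector of endosomal GTPases, by 1.16 ± 0.23 in log2 units (adjusted p = 0.0247), and SYNJ1, an inositol phosphatase of clathrin uncoating, by 0.62 ± 0.15 in log2 units (adjusted p = 0.045). This list, like the others, was drawn up with earlier results of these data known, and is no independent sign of a direction. ATG9A, a lipid scramblase of autophagosome formation, rose by 1.18 ± 0.17 in log2 units (adjusted p = 0.00708), although 38.8% of its exonic bases are shared with other genes, and the autophagosome protein MAP1LC3B fell by 0.72 ± 0.15 in log2 units (adjusted p = 0.0336), the 2 calls in 40 autophagy genes. In the lysosomal list of 45, the subunits A and B2 of the proton pump's catalytic head, ATP6V1A and ATP6V1B2, fell and 0 rose. ATP6V1A stood at 104, 90.1 and 84.7 CPM in control and 60.7, 41.4 and 31.2 CPM with shRNA-143, with -1.12 ± 0.16 (adjusted p = 0.00544), and ATP6V1B2 at 216, 182 and 174 CPM in control and 151, 109 and 103 CPM with shRNA-143, with -0.67 ± 0.13 (adjusted p = 0.0217). Both were also lower than with shRNA-146, by 1.32 and 0.74 on the log2 scale (adjusted p = 0.00301 and 0.0198).

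In metabolism, DHCR7, which completes cholesterol synthesis, stood at 43.1, 28.6 and 32.3 CPM in control and 16.9, 10.5 and 11.5 CPM with shRNA-143, with -1.43 ± 0.14 (adjusted p = 0.00127), while SC5D, the enzyme that forms its substrate, rose by 0.79 ± 0.13 in log2 units (adjusted p = 0.0133). These were the 2 calls among 38 genes of cholesterol synthesis and uptake, whose median was 0.0028. SLC2A1 (GLUT1), the main glucose carrier, stood at 229, 204 and 208 CPM in control and 116, 109 and 127 CPM with shRNA-143, with -0.87 ± 0.12 (adjusted p = 0.00516), 1 fall and 0 rises in 33 glycolytic and pentose phosphate genes. Both DHCR7 and SLC2A1 were lower in every shRNA-143 library than in any control library. Of 31 genes of oxidative stress and haem, the methionine sulfoxide reductase MSRB1 fell (-0.86 ± 0.14), and SLC40A1 and SLC7A11 rose. DGUOK and RRM2 were the 2 falls among 35 genes of dNTP synthesis and mitochondrial DNA maintenance, with 0 rises and a median of -0.19. In 28 genes of the electron transfer flavoprotein and fatty acid oxidation, ETFRF1 fell and CPT1A, the gate of fatty acid entry into mitochondria, rose by 0.96 ± 0.21 in log2 units (adjusted p = 0.0343).

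Genes of protein synthesis and respiration mostly had values slightly below 0 without passing. All 79 ribosomal protein genes had a value below 0, with a median of -0.27, and 0 passed by edgeR's test or limma. Before adjustment 10 of them were lower at p under 0.05, against 1491 of all 14975 tested genes, and DESeq2 called RPS26 lower. Their medians in the replicate pairs 1, 2 and 3 were -0.068, -0.20 and -0.51. The mitochondrial ribosome had 78 tested genes and a median of -0.32. There were 4 falls and 0 rises, namely MRPL50 by 1.12 ± 0.16 in log2 units (adjusted p = 0.00584), MRPL20, MRPL21 and MRPL18, the last 3 by 0.60 to 0.74. At an unadjusted p under 0.05, 36 of the 78 were lower and 0 higher. In the 77 genes for nuclear-encoded subunits of oxidative phosphorylation the median was -0.25, and 16 were lower and 1 higher before adjustment at p under 0.05. ATP5ME fell (-0.99 ± 0.22, with 61.6% of its exonic bases shared with other genes) and COX7C rose. COX7C, a subunit of cytochrome c oxidase, was at 312, 202 and 303 CPM in control and 809.9, 418 and 479 CPM with shRNA-143, with 1.02 ± 0.17 (adjusted p = 0.0121), opposite to the median of its list. The 13 mitochondrially encoded genes had medians of 0.50, -0.087 and -0.19 in the 3 pairs, and 0 passed by edgeR's test, DESeq2 or limma, although 1 was higher before adjustment at p under 0.05. Library size scaling brought the ribosomal, mitochondrial ribosome and oxidative phosphorylation medians to -0.17, -0.22 and -0.15, and the gene length correction to -0.17, -0.23 and -0.15. Of 57 nucleolar and MYC target genes, with a median of -0.21, the small-subunit processing factor IMP3 fell (-0.79 ± 0.14, with 59.3% of its exonic bases shared). In that list 16 were lower and 0 higher before adjustment at p under 0.05. Of 37 translation factors 0 passed by edgeR's test or limma, 1 was higher and 4 lower before adjustment at p under 0.05, and DESeq2 called EIF6 lower.

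Among RNA-handling genes, EXOSC6, a ring subunit of the RNA exosome, was at 43.4, 42.1 and 47.8 CPM in control and 16.9, 20.2 and 21.8 CPM with shRNA-143, with -1.18 ± 0.13 (adjusted p = 0.00198), and EXOSC4 fell by 0.67 ± 0.16 in log2 units (adjusted p = 0.0491), 2 falls and 0 rises in 21 exosome and decay genes. Of 19 genes of microRNA and RNA interference machinery, the Argonaute AGO4 rose by 0.56 ± 0.13 in log2 units (adjusted p = 0.0449) and the helicase MOV10 by 0.90 ± 0.18 in log2 units (adjusted p = 0.0304), and 0 fell, with a median of 0.30. These genes were long, with a median length of 10852 bases, and the gene length correction brought the median to 0.11. SNHG16, a small nucleolar RNA host, rose by 0.62 ± 0.14 in log2 units (adjusted p = 0.0372), 1 of 18 nuclear noncoding RNAs. Of the exonic bases of SNHG16 33.4%, of EXOSC4 24.4% and of RRM2 20.2% are shared with other genes, so that part of their counts is uncertain too, as for CRYBG3 (20.9%), MRPL20 (15.5%), F12 (14.4%) and CCT4 (12.6%). Of 1434 tested long noncoding genes, 4 rose and 12 fell (1.12%), against 3.54% of 12598 protein-coding genes. The noncoding RNAs PAXIP1-AS1 and ST20-AS1 fell by 1.96 ± 0.32 in log2 units (adjusted p = 0.0121) and 1.61 ± 0.24 in log2 units (adjusted p = 0.00708). Of the exonic bases of ST20-AS1, 8.79% are shared with other genes, and without a statement that counting used strand its reads there cannot be told apart from theirs. The abundant genes HMGN2, a nucleosome-binding protein, and RAN, the GTPase of nuclear transport, also fell, by 0.68 ± 0.14 and 1.04 ± 0.15, and were singled out after their values were seen.

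**Figure D4:**
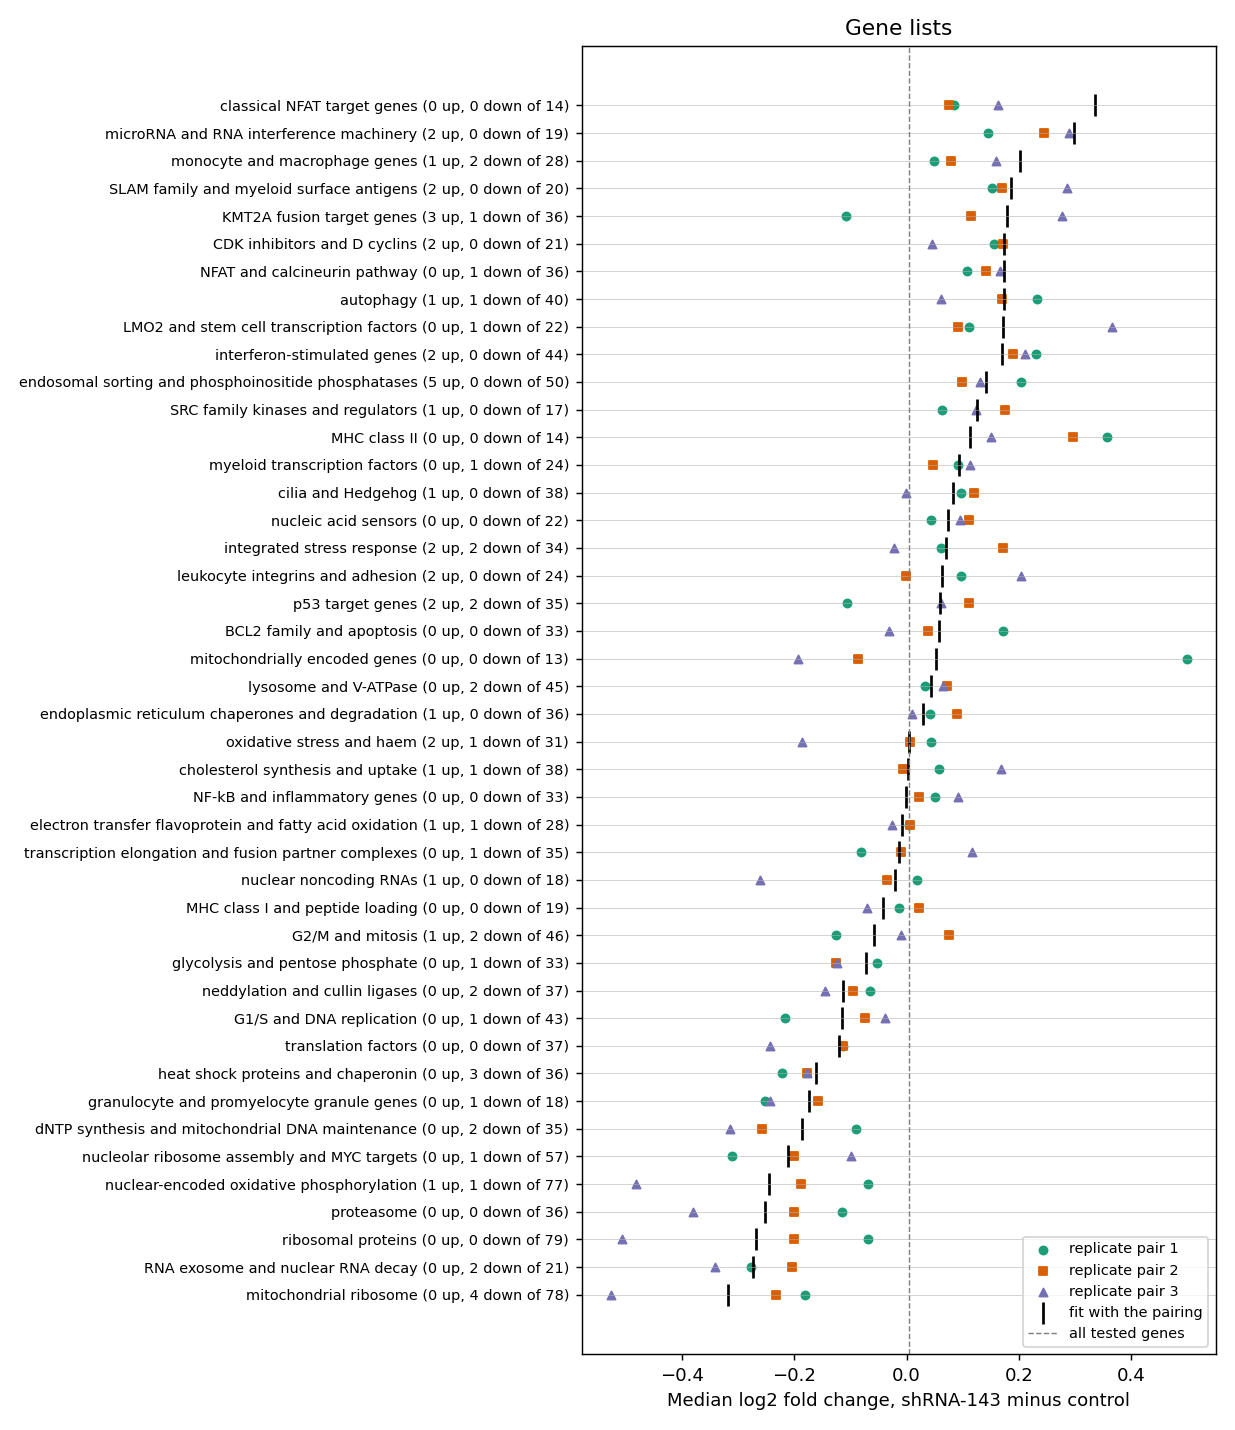
Each row is a gene list, with the number of tested members that rose and fell, and the horizontal axis is the median log2 fold change, shRNA-143 minus control. Symbols are the medians within replicate pairs 1, 2 and 3 and the bar that of the fit. The ribosomal and mitochondrial ribosome lists lie left in all 3 pairs, and the mitochondrially encoded genes run from -0.19 to 0.50.

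Change also moved with gene length, a property that the lists above share unequally. In 5 equal bins of tested genes from the shortest to the longest, medians were -0.20, -0.093, 0.012, 0.085 and 0.16. The shortest bin, up to 2312 bases, held 13 genes up and 54 down, and the longest, from 7761.4 bases, 79 up and 21 down. Between the shortest and the longest bin the medians went from -0.36 to 0.28 within replicate pair 3, from -0.14 to 0.15 within pair 2 and from -0.075 to 0.054 within pair 1. Ribosomal proteins, mitochondrial ribosome and oxidative phosphorylation genes had median lengths of 3109, 2544 and 2475 bases against 4550 for all tested genes, while NFAT pathway and endosomal sorting genes had 7608.5 and 6403. The part of length in their medians was not tested beyond the correction given above, under which 415 genes passed, 200 up and 215 down, with 342 of the 474 among them.

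**Figure D5:**
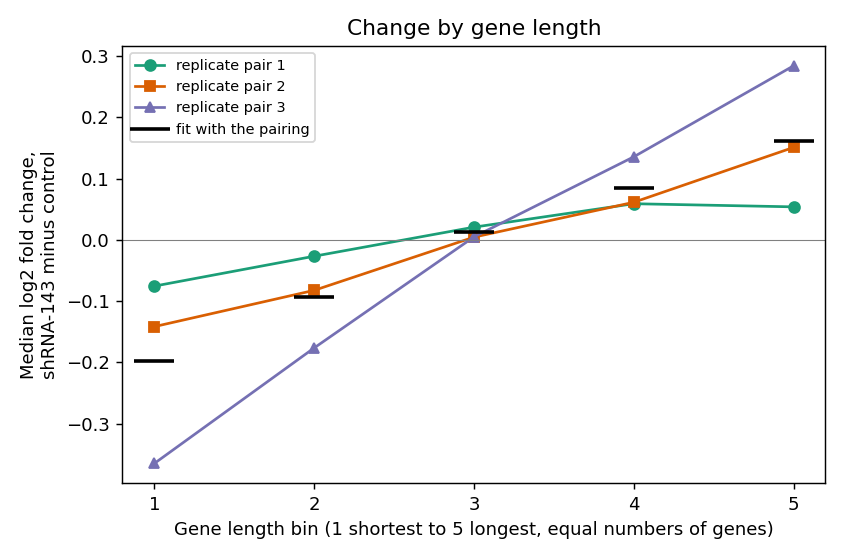
The median log2 fold change, shRNA-143 minus control, is drawn for 5 equal bins of genes by length, from the shortest (1) to the longest (5), within each replicate pair and in the fit. All 3 pairs lie lower in bin 1 than in bin 5, with the widest span in pair 3.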

How the data were processed

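Counts per gene for 9 THP-1 libraries were deposited by the authors as a table of whole-number counts over 58735 Ensembl genes, 1 column per library, with no row that names no gene. Tools listed in the submitters' processing notes are DESeq2, featureCounts, STAR 2.5 and fastp, on the hg38 build, with no role for each; whether counting used strand was not given in these sources. The authors' deposited comparison table for shRNA-143 gave gene names, positions and lengths, the same counts, and the authors' log2 fold changes and p-values, whose test its header does not state; 12 of its per-sample columns of normalized values were not used.

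Genes were kept by filterByExpr (14975 genes, over 99.9% of counts), given TMM factors and fitted in edgeR 4.0.16 (glmQLFit, robust; R 4.3.3), with 3 group means and a block for the replicate number, leaving 4 residual degrees of freedom; the groups are those of the titles. What libraries of one number share is not in the labels, and the comparison is defined with the replicate number as pairing. Every same-numbered pair of control and shRNA-143 correlated over 0.1. So did control replicate 2 with shRNA-143 replicate 3 and control replicate 3 with shRNA-143 replicate 2. SE is the fold change over the root of its F statistic. The fit was tested on simulated data, with genes changed by known folds. Values within pairs use a prior count of 2. Alternatives were DESeq2 1.42.0, limma 3.58.1 (voom), other scaling and filters, a gene length correction, the 6 libraries alone and left-out libraries. Exon overlaps come from GENCODE 29. Totals per library were 40047459 to 44669709 counts.

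Members and lists were chosen with earlier results of these data known. Named were NFATC2; the 15 protein-coding genes with the largest change in each direction among those that passed, moved alike in 3 pairs and had a mean of at least 1 CPM over the 6 libraries; up to 4 called and 2 uncalled genes per list (SYNJ1 and the genes called by DESeq2 or limma alone were added after their values were seen); up to 6 per direction that also differed from shRNA-146; and up to 4 noncoding genes per direction.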

Additional observations from a re-analysis of the deposited data

How the results depend on the processing

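None of the named genes called with the pairing changed sign in any of the 21 alternatives. The alternatives reuse the same counts, in which these genes moved alike in all 3 pairs, so this is no separate support. Of 4169 values of single named genes under these alternatives, 3069 stayed on their side of the threshold, 699 no longer passed and 401 newly passed. The change of NFATC2 with shRNA-143 did not pass without the replicate block (-2.09, adjusted p = 0.497), and passed in the other alternatives, where leaving out libraries gave -2.52 to -1.93. The count of 474 genes (239 up, 235 down) became 7 (1 and 6) without the replicate block, 2789 (1482 and 1307) with the 6 libraries alone, 1240 (689 and 551) without a filter on low counts and 945 (529 and 416) with DESeq2; the cause was not tested. With library size scaling 147 fell. Leaving out libraries gave 52 to 2099 genes, 14 to 1092 up and 33 to 1007 down. Upper quartile scaling, limma-voom, the CPM filter and the length correction stayed within 1.5 times. Of the 30 genes with the largest changes, 9 differed between the shRNAs, and 5 without the replicate block. Of 44 list medians, 14 changed sign in at least 1 alternative (medians of at most 0.173 in size) and 30 kept it. In the lowest of 5 bins by CPM 0.501% of genes passed, against 3.17% of all, and the part of depth in this was not tested.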
